A study of Mus musculus with 12 samples.

Results

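Opposite-strand transcripts are RNAs read from the DNA strand opposite to a named gene, and their symbols are the symbol of that gene, here called the stem gene, followed by os. They were collected from a table of 19716 genes by taking every symbol that ends in os with or without a number. Of 153 such symbols 11 were left out by name, most of them unrelated genes such as Fos, which leaves 142 members. The names set to be left out include Epb41l4aos, whose symbol has the form of an opposite-strand transcript. In the gene annotations (GENCODE M21, or RefSeq for 4 members that GENCODE lacks) 123 of the 142 were noncoding members with a stem gene. A further 10 opposite-strand members were protein coding, and 9 protein-coding members had no gene with the symbol of their stem. Of these 9, 8 matched by spelling, such as Pros1, the blood clotting cofactor protein S, and Uros, an enzyme of heme synthesis, while Zbtb8os is named for the Zbtb8 family. The name opposite-strand noncoding transcript thus did not hold for 19 of the 142 members, and these are described separately.

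The cells were mouse embryonic stem cells (ESC), self-renewing cells of the early embryo, with a transgene for HA-Flag-AGO2 that doxycycline (dox) switches on. The transgene is present in each of the 4 groups sequenced, which are nuclear RNA with and without dox and total RNA with and without dox. Cells with dox received 2.5 ug/ml in the 15 h before harvest. All cells were at passages 8-15 on gelatin with leukemia inhibitory factor. The labels list 3 libraries in each group, and the deposited group means rest on 3, 2, 2 and 3 of them in the order given. AGO2 is the Argonaute protein that carries miRNAs, and the title of the study places the question in miRNA-guided silencing inside the nucleus.

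Noncoding RNA on the strand opposite to a gene can begin near the start of that gene and run away from it, from a promoter that fires in both directions, or can run across the gene and overlap its exons. Such RNAs are usually less abundant than the mRNA beside them. Some are known to stay in the nucleus and to act on their neighbour, and for most no function is known.

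The columns were checked against their labels first. Ago2 averaged 2.39 RPKM (reads of a gene relative to its length and to all reads of the library) in the dox-labelled nuclear column and 8.65 RPKM in the no-dox nuclear column, and 3.43 against 9.12 RPKM in total RNA. It was thus lower in the dox-labelled columns (log2 fold change -1.85 and -1.41, SE 0.166, limma Benjamini-Hochberg adjusted p = 4.99e-07 and 7.91e-06), against the label of an induced transgene. Directions are therefore given for columns labelled dox. Markers of ESC were present, 10 of 10 at 1 RPKM or more, and their summed level was 2534 RPKM with dox and 898 RPKM without in nuclear RNA, and 4205 and 1787 RPKM in total RNA. Markers of feeder cells, endoderm, mesoderm and trophectoderm reached 1 RPKM in no column, and 1 of 4 neuroectoderm markers did in some column. Only 3 of 5 feeder markers and 3 of 4 endoderm markers had a row, so the others could not be checked. The 5 RNAs used as markers of nuclei summed to 81.2 RPKM in nuclear and 145 RPKM in total RNA with dox. Without dox the sums were 494 and 658 RPKM, so the sum was lower in the columns labelled nuclear. Malat1 made up most of it, with 77.3 and 140 RPKM in nuclear and total RNA with dox and 467 and 633 RPKM without. Neat1 was likewise lower in both nuclear columns. Kcnq1ot1 had 0.578 and 0.646 RPKM in nuclear and total RNA with dox, but 5.80 and 5.41 RPKM without. Xist and Meg3 are given only in the sum. Library depths were estimated from the steps of low values in the group means, each from 8 to 42 genes. They came to 10.3 to 11.8 M reads for the dox libraries and 15.3 to 18.9 M for the no-dox libraries. By this estimate every dox library was the shallower. All levels below are the authors' group means taken back from the deposited log2 scale, without values for single libraries.

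Of the 142 members 129 could be placed together with their stem gene on GRCm38, the build named mm10 in the submitters' notes, and none of the 129 lay on the strand of its stem gene. The starts of the pair overlapped head to head in 42 pairs, the member lay within the body of the stem gene in 39, and the pair diverged without overlap in 22. The ends overlapped in 16 pairs, 6 pairs converged without overlap, and the member spanned the stem gene in 4. In 38 pairs the starts were within 1000 bp of each other. Divergent members began at a median offset of -199.5 bp, that is upstream of the start of the stem gene. Exon bases were shared with the stem gene in 74 members. The libraries were directional, but whether reads were counted by strand is not given in the sources used here. Where exons overlap, reads of the member and of the stem gene therefore cannot be told apart with certainty, and the share of exon bases of a member that its stem gene also covers is given for the members with results below. It was 14.97% for Ino80dos, 5.10% for Tnk2os, 11.8% for Scpep1os, 15.1% for Cebpzos, 8.84% for Abhd11os, 18.2% for Uckl1os, 6.12% for Arhgap20os and 47.8% for Frs3os, and it is printed with the values of the others.

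**Figure D1:**
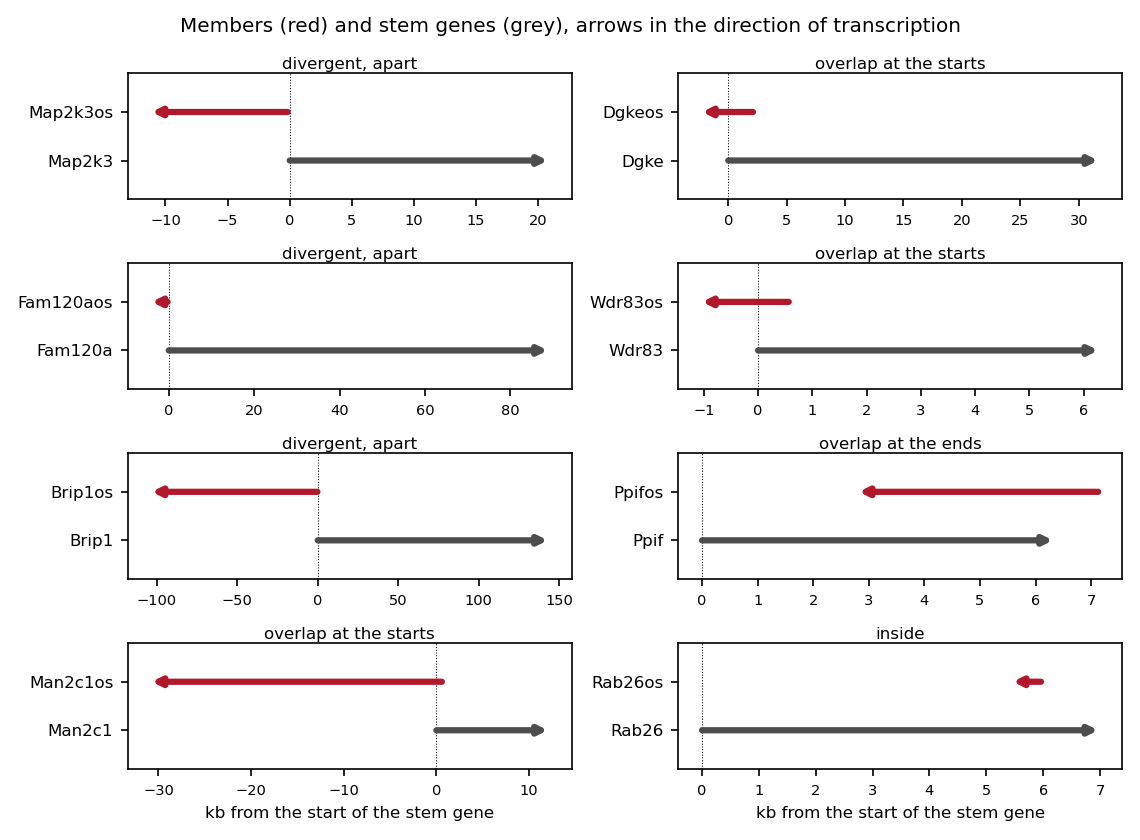
Position of 8 members above their stem genes, in kb from the start of the stem gene with its direction of transcription to the right; arrows point in the direction of transcription and each panel has its own scale. Map2k3os, Fam120aos and Brip1os start upstream of their stem gene and run away from it, whereas Man2c1os, Dgkeos, Wdr83os, Ppifos and Rab26os overlap it.

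The start regions of 5 members are printed because they carry the results below: Rab26os has the highest level, Man2c1os, Map2k3os and Ppifos are called in the opposite direction to their stem gene, and Fam120aos is called in the same one. The windows run from 250 bases before to 50 bases after the RefSeq start of the member, 5′ to 3′ on its own strand, from RefSeq's GRCm38.p6 annotation. Capitals mark matches, on either strand, to the TATA box TATAAA, the CCAAT box CCAAT, the GC box GGGCGG, the NRF1 core GCATGCGC and the ETS site CCGGAAG. Overlapping matches run together.
Rab26os: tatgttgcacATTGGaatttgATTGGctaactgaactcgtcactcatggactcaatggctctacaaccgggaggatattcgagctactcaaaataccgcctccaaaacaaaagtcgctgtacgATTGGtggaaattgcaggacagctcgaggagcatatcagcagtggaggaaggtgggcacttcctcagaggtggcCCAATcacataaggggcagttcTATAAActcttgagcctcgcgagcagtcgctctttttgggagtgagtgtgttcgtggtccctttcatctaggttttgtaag
Man2c1os: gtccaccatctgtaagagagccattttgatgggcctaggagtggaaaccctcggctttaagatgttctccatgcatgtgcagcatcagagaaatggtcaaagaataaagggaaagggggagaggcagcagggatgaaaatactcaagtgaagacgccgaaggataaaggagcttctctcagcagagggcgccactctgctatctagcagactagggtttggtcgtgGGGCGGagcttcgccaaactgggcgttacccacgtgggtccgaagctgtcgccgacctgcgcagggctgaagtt
Map2k3os: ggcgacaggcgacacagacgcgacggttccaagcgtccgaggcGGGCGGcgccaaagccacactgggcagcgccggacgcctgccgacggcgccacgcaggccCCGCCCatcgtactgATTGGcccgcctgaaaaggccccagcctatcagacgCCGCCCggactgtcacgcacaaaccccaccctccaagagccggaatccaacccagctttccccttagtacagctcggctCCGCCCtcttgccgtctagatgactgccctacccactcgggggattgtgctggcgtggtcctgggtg
Ppifos: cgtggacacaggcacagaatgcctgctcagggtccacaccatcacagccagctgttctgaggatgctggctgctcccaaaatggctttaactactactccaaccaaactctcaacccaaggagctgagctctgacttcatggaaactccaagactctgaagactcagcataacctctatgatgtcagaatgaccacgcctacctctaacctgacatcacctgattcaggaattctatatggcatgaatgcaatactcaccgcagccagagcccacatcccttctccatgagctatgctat
Fam120aos: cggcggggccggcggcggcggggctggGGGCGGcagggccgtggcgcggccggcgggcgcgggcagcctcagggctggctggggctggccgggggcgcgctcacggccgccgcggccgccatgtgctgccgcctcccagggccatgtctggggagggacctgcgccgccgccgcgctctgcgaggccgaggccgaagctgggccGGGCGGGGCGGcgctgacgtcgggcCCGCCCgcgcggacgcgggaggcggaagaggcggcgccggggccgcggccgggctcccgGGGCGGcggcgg

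The Rab26os window (chr17:24528001-24528300, plus strand) had 48.3% G and C, 4 CCAAT matches and 1 TATA match. The window of Map2k3os (chr11:60931818-60932117, minus strand) also held the start of Map2k3, at position 85 of the 300 bases, so that a single GC-rich stretch (67.7% G and C, 30 CpG) lies upstream of both RNAs. The window of Fam120aos (chr13:48967862-48968161, plus strand) likewise held the start of Fam120a, at position 156, and had 86.7% G and C and 54 CpG. The Ppifos window (chr14:25701233-25701532, minus strand), which lies past the 3′ end of Ppif, had 3 CpG and no match. The window of Man2c1os (chr9:57131241-57131540, minus strand) had 13 CpG and 1 GC box. A GC box was found in 34.8% of 115 member windows and 35.7% of 32851 RefSeq windows, a CCAAT box in 36.5% and 37.4%, and a TATA box in 7.83% and 13.6%. An NRF1 core was found in 1.74% and 2.71%, and an ETS site in 8.70% and 8.86%. The 115 windows belong to 108 members with a stem gene, and their median was 54.3% G and C with 8 CpG, against 52.7% and 7 CpG over all windows. The 22 windows of 19 such members with at least 1 RPKM in a column had medians of 62.8% G and C and 16 CpG. No median was taken over the windows of all genes at that level. These matches describe the letters of the windows and are not binding sites.

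Most opposite-strand members were scarce in ESC. The median level over the 142 members was 0.0106 RPKM in nuclear RNA with dox and 0.106 RPKM without dox, and 0.0109 and 0.110 RPKM in total RNA. For the 127 stem genes in the table the medians were 0.896 and 0.817 RPKM in nuclear RNA and 1.25 and 1.32 RPKM in total RNA. The mark used for testing, 1 RPKM or more in any of the 4 columns, was reached by 29 members and not by the other 113. The 29 were 19 noncoding and 4 coding opposite-strand members and 6 of those without a stem gene. The members just inside the mark were Scpep1os (highest mean 1.08 RPKM), Rbm3os (1.10) and Grin1os (1.11), and those just outside were Uckl1os (0.903), Uros (0.895) and Arhgap20os (0.875).

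**Figure D2:**
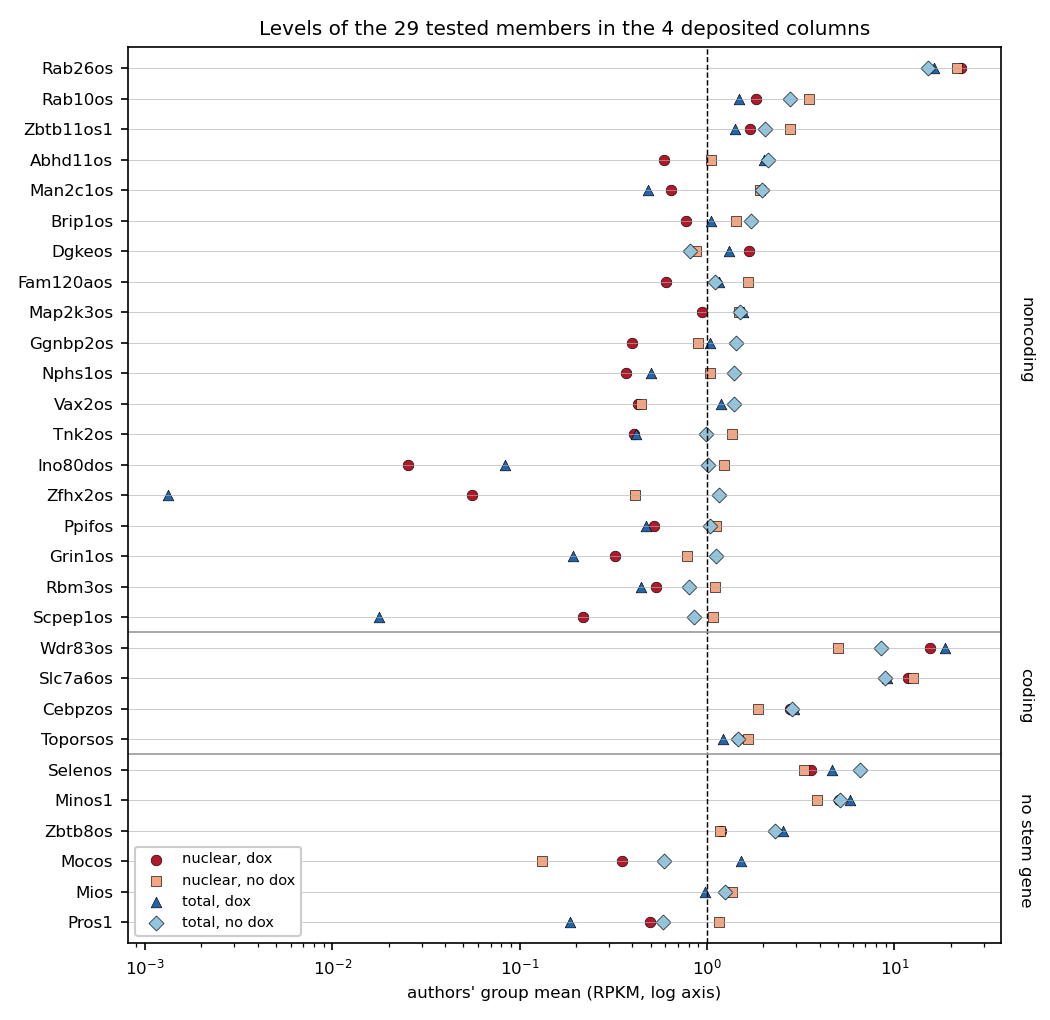
Authors' group mean in RPKM on a log axis for the 29 members with at least 1 RPKM (dashed line) in a column, in the blocks noncoding, coding and without a stem gene. Rab26os stands at 15.1 to 22.7 RPKM in all 4 columns, and the means of Ino80dos, Zfhx2os and Scpep1os fall below 0.1 RPKM in a column labelled dox.

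Rab26os was the most abundant noncoding member, with 22.7 RPKM in nuclear RNA with dox and 21.7 RPKM without, and 16.3 and 15.1 RPKM in total RNA. It is 497 bases long (ENSMUSG00000093565.1, chromosome 17, 24528248 to 24528744, plus strand) and lies within Rab26, a small GTPase of secretory vesicles, with which it shares 0 exon bases. Its span holds Snord60, a small nucleolar RNA of the class that guides methylation of ribosomal RNA. Whether reads of Snord60 enter its level was not tested. Rab26 itself averaged 0.903 and 1.32 RPKM in nuclear RNA with and without dox, and 0.823 and 1.75 RPKM in total RNA, below Rab26os in every column. The next noncoding member, Rab10os, reached 3.49 RPKM at most and is a long RNA (6144 exon bases) that overlaps the end of Rab10, a GTPase of membrane traffic, in 2.33% of its exon bases.

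The coding members Wdr83os and Slc7a6os were also among the highest. Wdr83os, whose human counterpart encodes a small protein of the endoplasmic reticulum membrane, averaged 15.5 RPKM with dox and 5.0 RPKM without in nuclear RNA, and 18.5 and 8.48 RPKM in total RNA. Slc7a6os, related to a yeast factor that brings RNA polymerase II into the nucleus, averaged 11.8 and 12.5 RPKM in nuclear RNA and 9.12 and 8.94 RPKM in total RNA. Both stood above their stem genes in every column: Wdr83, a WD-repeat scaffold protein, reached 7.47 RPKM and Slc7a6, an amino acid transporter, 7.11 RPKM at most.

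Of the 130 pairs with both genes in the table, the member was the lower in all 4 columns in 102 and the higher in all 4 in 7. Where the member had a level above 0, the median ratio of stem gene over member was 18.1 in nuclear RNA with dox and 5.10 without, and 15.1 and 6.58 in total RNA. Among the 23 pairs whose member was tested, the member was higher throughout in 4: Rab26os, Wdr83os, Slc7a6os and Brip1os. Brip1os, which diverges from Brip1 with its start at -177 bp from that of Brip1, averaged 0.774 and 1.44 RPKM in nuclear RNA with and without dox, and 1.05 and 1.72 RPKM in total RNA. Brip1, a DNA helicase of crosslink repair, averaged 0.194 and 0.609 RPKM in nuclear RNA, and 0.378 and 0.686 RPKM in total RNA, below 1 RPKM in every column. Zbtb11os1 and Dgkeos lay near or above their stem genes in part of the columns: Zbtb11os1 averaged 1.70 and 2.78 RPKM in nuclear RNA with and without dox, against 1.43 and 2.70 RPKM for Zbtb11, a zinc finger transcription factor.

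In nuclear RNA noncoding members were mostly lower in the dox-labelled column. Of the 19 tested, 11 were lower, 1 was higher and 7 were not called, with a median log2 fold change of -1.10. Of the 4 coding members 2 were higher and 0 lower, and of the 6 without a stem gene 1 was higher and 1 lower, so that 4 of 29 members were higher and 12 lower. Over all 10197 tested genes 43.1% were higher and 26.2% were lower, with a median of 0.28. Of 179 other tested long noncoding genes, a list chosen after its values were seen, 7.82% were higher and 74.3% lower, with a median of -1.47, a larger share lower than among the noncoding members (57.9%).

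The mark of 1 RPKM bears on these counts. Of the 19 noncoding members 9 reached it in no-dox columns only, and such a gene has a lower mean with dox by its choice in the fraction where it reached the mark. Of these 9, 6 were called lower in nuclear RNA; Grin1os and Zfhx2os had reached the mark in total RNA alone. Dgkeos reached it in dox columns only. Of the 9 that reached it on both sides, Brip1os, Rab10os, Zbtb11os1, Map2k3os and Fam120aos were called lower (55.6%), against 21.4% of the 8646 genes that reached it on both sides and 65.6% of 96 such other long noncoding genes. No test of these shares was made.

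The largest nuclear change was that of Ino80dos, a long intergenic RNA by type that overlaps the start of Ino80d, a subunit of the INO80 chromatin remodeller. It averaged 0.0253 RPKM with dox and 1.23 RPKM without (46.9-fold lower, log2 -5.55, SE 1.65, limma adjusted p = 0.00888). Its residual SD was 2.48 on the log2 scale, its level with dox corresponds to 0.8 reads per library, and with a pseudocount of 0.1 the log2 value was -3.41, so the size of the fold is poorly determined. Tnk2os, inside Tnk2, a tyrosine kinase gene, averaged 0.410 RPKM with dox and 1.36 RPKM without (3.31-fold lower, log2 -1.73, SE 0.378, limma adjusted p = 0.00118). Man2c1os averaged 0.638 and 1.92 RPKM (3.00-fold lower, log2 -1.58, SE 0.397, limma adjusted p = 0.00307). Nphs1os, inside the gene of the kidney filter protein nephrin, averaged 0.370 and 1.04 RPKM (2.80-fold lower, log2 -1.49, SE 0.433, limma adjusted p = 0.00785), and 44.6% of its exon bases are shared with Nphs1. Fam120aos averaged 0.602 and 1.65 RPKM (2.75-fold lower, log2 -1.46, SE 0.401, limma adjusted p = 0.00556). Grin1os, inside the gene of an NMDA receptor subunit, averaged 0.325 and 0.785 RPKM (2.41-fold lower, log2 -1.27, SE 0.363, limma adjusted p = 0.00710).

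The other lower members were Pros1, Ppifos, Rab10os, Brip1os, Zbtb11os1 and Map2k3os, with falls of 1.59-fold to 2.34-fold. Among the 4 higher members Wdr83os was first (3.09-fold, log2 1.63, SE 0.178, limma adjusted p = 3.25e-06). Mocos, the molybdenum cofactor sulfurase, which matches by spelling alone, averaged 0.352 and 0.131 RPKM with and without dox (2.68-fold higher, log2 1.42, SE 0.407, limma adjusted p = 0.00718). Dgkeos averaged 1.67 and 0.869 RPKM (1.92-fold higher, log2 0.94, SE 0.259, limma adjusted p = 0.00543), and Cebpzos 2.77 and 1.88 RPKM (1.48-fold higher, log2 0.56, SE 0.188, limma adjusted p = 0.0170). Rab26os, Slc7a6os and Vax2os were not called, with log2 fold changes of 0.07, -0.08 and -0.05 (SE 0.157, 0.114 and 0.288). Under quantile normalization 5 members were higher and 8 lower, and the calls of Grin1os, Ino80dos, Nphs1os, Ppifos, Pros1 and Map2k3os ended; that of Cebpzos ended with columns centred on their median and that of Ino80dos also without variance moderation. Tested members were short (median 1956 exon bases against 4318 over tested genes), and with the trend on exon length removed 19 of 28 were lower and 1 higher, while Cebpzos turned to log2 -0.55 (adjusted p = 0.0207) and the calls of Dgkeos and Mocos ended. That removal also moved the median of all tested genes by -0.316. Shares over all genes were not counted under quantile normalization or with the length trend removed. The member counts under these settings thus have no background beside them.

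**Figure D3:**
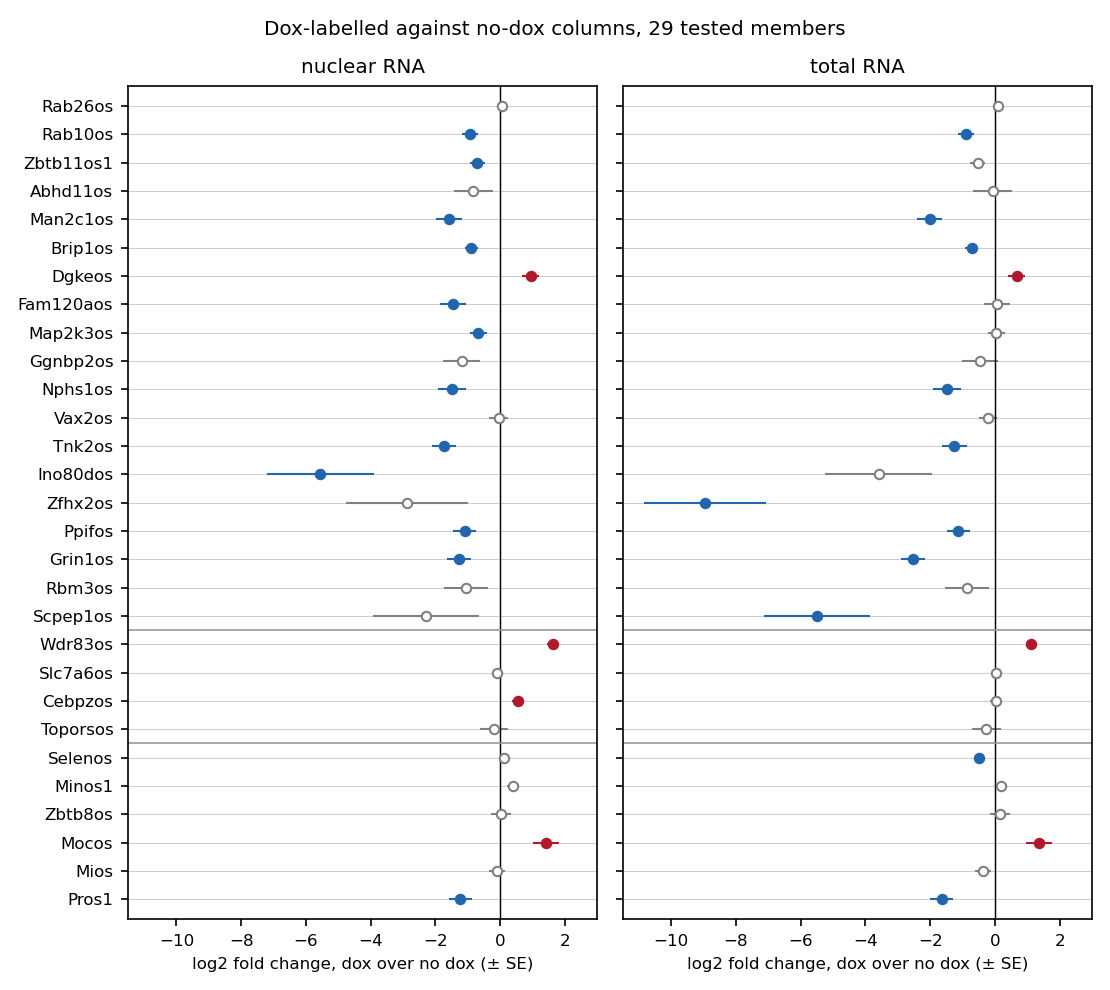
Log2 fold change of dox over no dox with its SE for the 29 tested members in nuclear RNA (left) and total RNA (right); filled red points are called higher, filled blue points lower, open points not called. In nuclear RNA 12 members are called lower and 4 higher, in total RNA 11 lower and 3 higher.

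In total RNA 11 of 29 members were lower and 3 higher, with a median log2 fold change of -0.47 (all genes: 41.5% higher, 22.8% lower, median 0.26). Noncoding members made up 9 of the 11. Of the 11, 8 had reached the mark of 1 RPKM in no-dox columns only. Of the 17 members that reached it on both sides 3 were lower (17.6%), and of the 9 noncoding ones among them 2 (22.2%), against 18.1% of all such genes and 52.1% of such other long noncoding genes. Lower in nuclear as well as total RNA were Brip1os, Grin1os, Man2c1os, Nphs1os, Ppifos, Pros1, Rab10os and Tnk2os, 8 members that make up 66.7% of the nuclear and 72.7% of the total list of lower members. Over all genes the shares were 75.8% and 87.3%. Brip1os and Rab10os reached the mark on both sides and the other 6 in no-dox columns only, a choice that favours a lower call. Wdr83os, Mocos and Dgkeos were higher in both. Wdr83os reached the mark on both sides. Mocos and Dgkeos reached it in dox columns only, Mocos in total RNA alone, a choice that favours a higher call. In total RNA quantile normalization ended the calls of Ppifos, Pros1 and Tnk2os, removal of the length trend those of Wdr83os, Mocos and Dgkeos, and that of Scpep1os ended without the filter and without variance moderation.

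Zfhx2os had the largest change in total RNA. It averaged 0.00132 RPKM with dox and 1.16 RPKM without (log2 -8.96, SE 1.88, limma adjusted p = 9.77e-04), which corresponds to 0.1 and 82.5 reads per library. Scpep1os averaged 0.0178 and 0.854 RPKM (log2 -5.50, SE 1.64, limma adjusted p = 0.00976), with 0.2 and 11.1 reads per library. Both have residual SDs above 2, and with a pseudocount of 0.1 their log2 values were -3.63 and -3.02. Of Zfhx2os, 73.1% of the exon bases are shared with Zfhx2, a homeobox transcription factor. Grin1os averaged 0.193 RPKM with dox and 1.11 RPKM without (5.76-fold lower, log2 -2.53, SE 0.363, limma adjusted p = 4.50e-05), the smallest p among the lower members. Grin1 averaged 5.78 and 5.84 RPKM in the same columns (log2 -0.02, SE 0.135, adjusted p = 0.925), and 45.2% of the exon bases of Grin1os are shared with it. Man2c1os averaged 0.486 and 1.97 RPKM (4.05-fold lower, log2 -2.02, SE 0.397, limma adjusted p = 6.07e-04). Pros1 averaged 0.185 and 0.581 RPKM (3.13-fold lower, log2 -1.65, SE 0.361, limma adjusted p = 0.00133), and Nphs1os 0.501 and 1.39 RPKM (2.78-fold lower, log2 -1.48, SE 0.433, limma adjusted p = 0.00899).

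The higher members in total RNA were Mocos (1.51 and 0.588 RPKM with and without dox, 2.57-fold, log2 1.36, SE 0.407, limma adjusted p = 0.0101), Wdr83os (2.19-fold, log2 1.13, SE 0.178, adjusted p = 1.03e-04) and Dgkeos. Dgkeos averaged 1.30 and 0.814 RPKM (1.60-fold, log2 0.68, SE 0.259, limma adjusted p = 0.0344). That call ended without the filter on low values, with columns centred on their median and without variance moderation, and with the length trend removed the value was -0.01. Fam120aos and Map2k3os, lower in nuclear RNA, had log2 fold changes of 0.07 (SE 0.401) and 0.05 (SE 0.273) in total RNA. The difference between their nuclear and total effects was -1.53 (SE 0.566, adjusted p = 0.264) and -0.72 (SE 0.385, adjusted p = 0.457). The difference between the nuclear and the total dox effect was called for 0 of 29 members and 0.0% of all tested genes by limma, with 4 members and 1341 genes at an unadjusted p below 0.05.

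Members were compared with their stem genes in the 22 pairs in which both were tested. In nuclear RNA both were called in 9 pairs, in the same direction in 5 and in opposite directions in 4. In total RNA both were called in 5 pairs, in the same direction in 2 and in opposite directions in 3. Of the members in these pairs, Ppifos, Man2c1os, Ino80dos and Nphs1os had reached 1 RPKM in no-dox columns only. Dgkeos had reached it in dox columns only. Such a choice favours the direction in which these members were called. Over all tested genes 43.1% were higher and 26.2% lower in nuclear RNA, and 41.5% and 22.8% in total RNA. Across the 22 pairs the log2 fold changes of member and stem gene had Pearson's r = 0.28 in nuclear and 0.10 in total RNA and Spearman's rho = 0.13 and -0.02, given as descriptions, since the 22 pairs share libraries and some share exon bases. The difference between member and stem gene was not tested. The 73 tested stem genes were higher in 24 cases and lower in 22 in nuclear RNA, and 22 and 22 in total RNA.

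**Figure D4:**
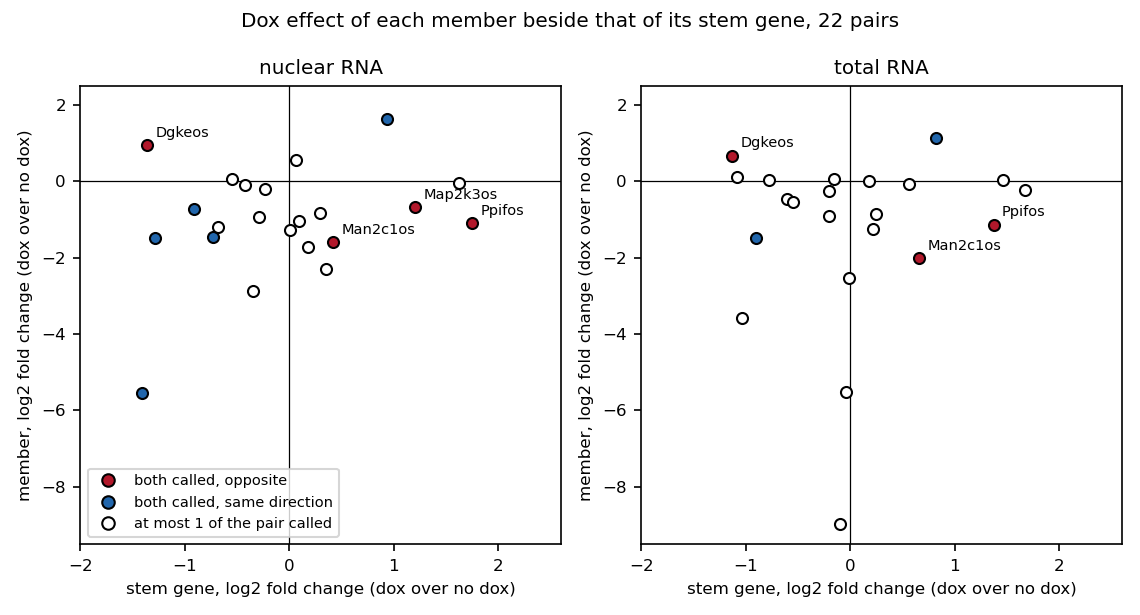
Log2 fold change of dox over no dox of the member (vertical axis) and of its stem gene (horizontal axis) for 22 pairs in nuclear RNA (left) and total RNA (right). Red points mark pairs called in opposite directions, 4 in nuclear and 3 in total RNA, and blue points pairs called in the same direction, 5 and 2.

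In nuclear RNA Ppifos and Ppif were the pair with the widest opposite change. Ppifos (chromosome 14, 25696974 to 25701282, minus strand) runs into Ppif, the gene of the mitochondrial peptidyl-prolyl isomerase cyclophilin D, from its 3′ end, and shares 79.5% of its exon bases with it. Ppifos averaged 0.523 RPKM with dox and 1.12 RPKM without in nuclear RNA (log2 -1.10, SE 0.360, limma adjusted p = 0.0154), and 0.471 and 1.03 RPKM in total RNA (log2 -1.13, SE 0.360, limma adjusted p = 0.0141). Ppif averaged 13.8 and 4.12 RPKM in nuclear RNA (log2 1.75, SE 0.173, limma adjusted p = 1.27e-06), and 12.4 and 4.78 RPKM in total RNA (log2 1.37, SE 0.173, limma adjusted p = 1.51e-05). Ppif thus stood 26.4-fold above Ppifos with dox and 3.67-fold above it without dox in nuclear RNA.

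Man2c1os (chromosome 9, 57099950 to 57131290, minus strand) begins 600 bp inside Man2c1, a cytosolic alpha-mannosidase, and runs out past its start, with 21.4% of its exon bases shared. While Man2c1os was lower with dox in both fractions, Man2c1 averaged 4.82 and 3.60 RPKM with and without dox in nuclear RNA (log2 0.42, SE 0.162, limma adjusted p = 0.0325) and 5.38 and 3.41 RPKM in total RNA (log2 0.66, SE 0.162, limma adjusted p = 0.00298). Both genes of this pair were called in both fractions.

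The Map2k3 pair shares its start region, printed above, and no exon base. Map2k3os (chromosome 11, 60920917 to 60931867, minus strand) averaged 0.935 RPKM with dox and 1.49 RPKM without in nuclear RNA (log2 -0.67, SE 0.273, limma adjusted p = 0.0417), and 1.56 and 1.51 RPKM in total RNA. Map2k3, the kinase that activates p38, averaged 8.29 and 3.59 RPKM in nuclear RNA (log2 1.21, SE 0.141, limma adjusted p = 5.95e-06) and 15.2 and 5.52 RPKM in total RNA (log2 1.46, SE 0.141, limma adjusted p = 1.43e-06). The nuclear call of Map2k3os ended without the filter on low values, under quantile normalization and without variance moderation.

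In the Dgke pair the directions were the other way round. Dgkeos (chromosome 11, 89064729 to 89069098, plus strand) was higher with dox, whereas Dgke, a diacylglycerol kinase, averaged 1.14 and 2.94 RPKM with and without dox in nuclear RNA (log2 -1.36, SE 0.160, limma adjusted p = 6.36e-06) and 2.52 and 5.52 RPKM in total RNA (log2 -1.13, SE 0.160, limma adjusted p = 3.95e-05). Dgkeos was above Dgke in nuclear RNA with dox and below it in the other 3 columns. The pair shares 4.69% of the exon bases of Dgkeos.

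The pairs that moved together in nuclear RNA were those of Fam120aos, Ino80dos, Nphs1os and Zbtb11os1, lower with their stem genes, and Wdr83os, higher with its own. Fam120a, an RNA-binding protein gene that shares the GC-rich start region with Fam120aos, averaged 8.71 and 14.5 RPKM with and without dox in nuclear RNA (log2 -0.74, SE 0.127, limma adjusted p = 1.76e-04). Ino80d averaged 1.55 and 4.11 RPKM (log2 -1.41, SE 0.176, adjusted p = 1.05e-05), Nphs1 1.66 and 4.06 RPKM (log2 -1.29, SE 0.155, limma adjusted p = 7.78e-06) and Zbtb11 1.43 and 2.70 RPKM (log2 -0.92, SE 0.191, limma adjusted p = 8.30e-04). Zbtb11os1 and Zbtb11 share 36.2% of the exon bases of Zbtb11os1, and Wdr83os and Wdr83 share 52.3% of those of Wdr83os. Wdr83 averaged 7.47 and 3.90 RPKM in nuclear RNA (log2 0.94, SE 0.162, limma adjusted p = 1.89e-04) and 6.40 and 3.63 RPKM in total RNA (log2 0.82, SE 0.162, limma adjusted p = 6.51e-04). The part of shared reads in these pairs was not tested. Vax2os was not called with dox, while Vax2, a homeobox gene of the eye, was 3.08-fold higher in nuclear and 3.19-fold higher in total RNA (limma adjusted p = 1.60e-05 and 1.52e-05).

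By position, the noncoding members called lower in nuclear RNA were 3 of 3 divergent members, 3 of 4 inside the stem gene, 3 of 6 that overlap at the starts and 2 of 5 that overlap at the ends. In total RNA the counts were 1 of 3, 3 of 4, 1 of 6 and 4 of 5. The divergent members had reached 1 RPKM on both sides. Grin1os, Tnk2os, Nphs1os, Man2c1os, Ino80dos, Ppifos, Zfhx2os and Scpep1os, of the other classes, had reached it in no-dox columns only, which favours a lower call. Over all tested genes 26.2% were lower in nuclear and 22.8% in total RNA. Of the other long noncoding genes 74.3% and 63.7% were lower. These position classes hold 3 to 6 tested members each, and no test between them was made.

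Most members, like most tested genes, were not called between nuclear and total RNA. Not called were 21 of 29 members with dox and 20 without, against 6043 and 6251 of 10197 genes. The median residual SD was 0.341 in the tested members and 0.199 over all tested genes. With dox 3 of 29 were higher in nuclear RNA and 5 lower (all genes: 5.83% higher, 34.9% lower), and without dox 3 were higher and 6 lower (all genes: 4.0% higher, 34.7% lower). Centred on their median the counts were 6 and 2 with dox and 4 and 3 without, and under quantile normalization 4 and 0, and 5 and 3. Centring moved the median of all tested genes by 0.367 with dox and 0.323 without. Quantile normalization moved it by 0.342 and 0.359. Shares over all genes were not counted under these scalings, so those above are no background for these counts. The median log2 fold change of nuclear over total was -0.02 in the 29 members with and without dox, against -0.32 and -0.31 over all tested genes. In the 19 noncoding members the medians were 0.15 and 0.095, with 1 higher and 3 lower with dox and 1 higher and 1 lower without. The 73 tested stem genes were lower in nuclear RNA in 32 cases with dox and 24 without, with medians of -0.42 and -0.30. Because RPKM is relative to all reads of a library, these values compare shares of reads, not amounts per cell.

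**Figure D5:**
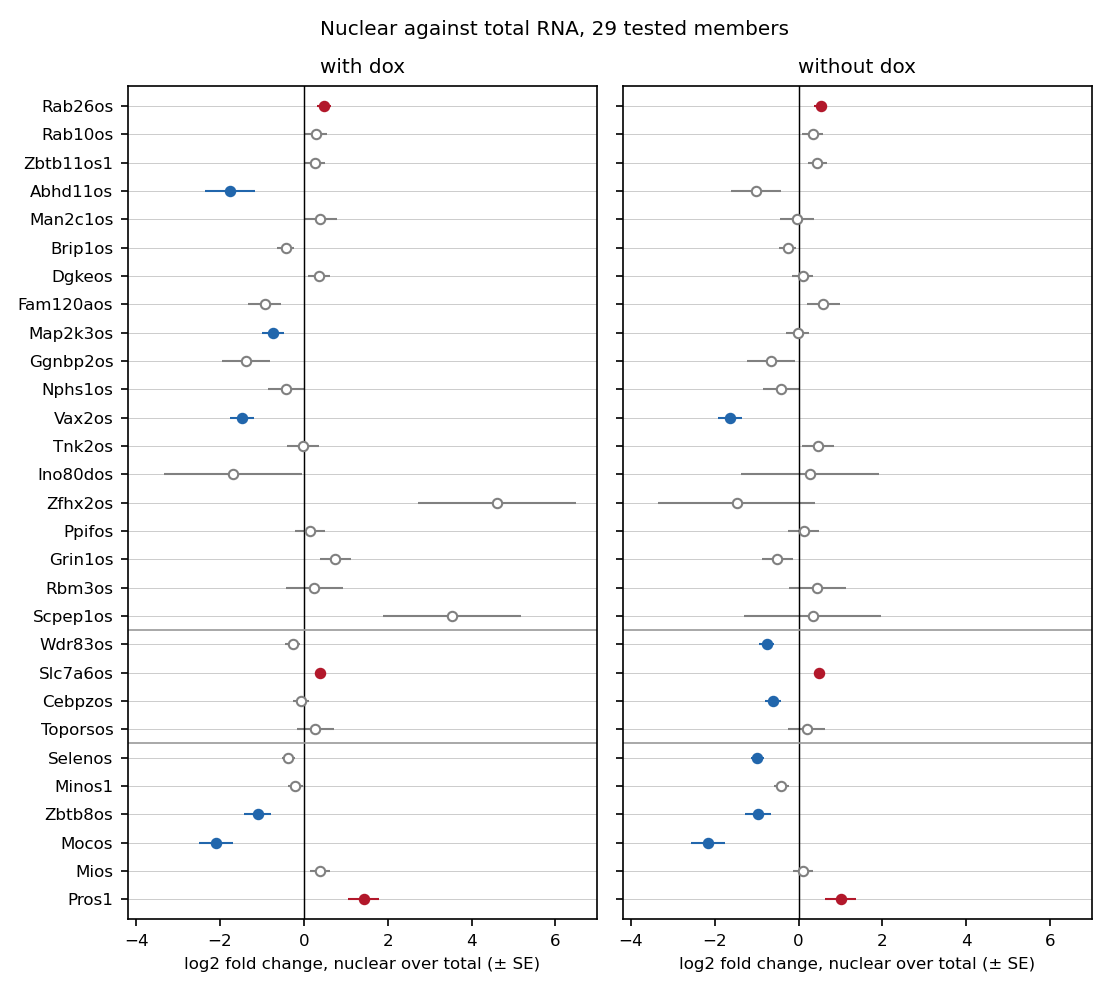
Log2 fold change of nuclear over total RNA with its SE for the 29 tested members with dox (left) and without dox (right); filled red points are called higher in nuclear RNA, filled blue points lower, open points not called. Rab26os, Slc7a6os and Pros1 are higher and Vax2os, Mocos and Zbtb8os lower in nuclear RNA in both panels.

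Rab26os was the 1 noncoding member called higher in nuclear RNA, with dox (1.39-fold, log2 0.48, SE 0.157, limma adjusted p = 0.0272) and without (1.44-fold, log2 0.52, SE 0.157, limma adjusted p = 0.0181). Both calls ended without the filter on low values and without variance moderation, and the call with dox also ended with the length trend removed. Slc7a6os was higher in nuclear RNA with dox (1.30-fold, log2 0.38, SE 0.114, limma adjusted p = 0.0186) and without (1.40-fold, log2 0.49, SE 0.114, limma adjusted p = 0.00458). Slc7a6 was lower there without dox (4.18 RPKM in nuclear and 7.11 RPKM in total RNA, log2 -0.77, SE 0.186, limma adjusted p = 0.00582), the only pair called in opposite directions between the fractions. Pros1 was higher with dox (2.68-fold, log2 1.42, SE 0.361, limma adjusted p = 0.00732) and without (2.00-fold, log2 1.00, SE 0.361, limma adjusted p = 0.0422).

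Vax2os, which begins 937 bp inside Vax2 and shares 0 exon bases with it, was lower in nuclear RNA. It averaged 0.429 RPKM in nuclear and 1.19 RPKM in total RNA with dox (2.78-fold lower, log2 -1.48, SE 0.288, limma adjusted p = 0.00149), and 0.444 and 1.39 RPKM without dox (3.12-fold lower, log2 -1.64, SE 0.288, limma adjusted p = 6.77e-04). Vax2 was also lower in nuclear RNA, 3.87-fold with dox and 3.74-fold without (limma adjusted p = 2.24e-05 and 2.30e-05). The other members lower in nuclear RNA with dox were Mocos (4.28-fold, log2 -2.10, SE 0.407, limma adjusted p = 0.00145), Abhd11os (3.40-fold, log2 -1.77, SE 0.598, adjusted p = 0.0314), Zbtb8os (2.15-fold, log2 -1.11, SE 0.316, adjusted p = 0.0140) and Map2k3os (1.67-fold, log2 -0.74, SE 0.273, adjusted p = 0.0457). Without dox they were Mocos (4.46-fold, log2 -2.16, SE 0.407, limma adjusted p = 0.00113), Selenos (1.98-fold, log2 -0.99, SE 0.159, adjusted p = 3.67e-04), Zbtb8os (1.96-fold, log2 -0.97, SE 0.316, adjusted p = 0.0274), Wdr83os (1.70-fold, log2 -0.76, SE 0.178, adjusted p = 0.00458) and Cebpzos (1.52-fold, log2 -0.61, SE 0.188, adjusted p = 0.0214). Selenos encodes selenoprotein S of the endoplasmic reticulum and Zbtb8os a cofactor of tRNA splicing, and neither has a gene with the symbol of its stem. The calls of Abhd11os with dox, of Map2k3os with dox, of Zbtb8os in both comparisons, and of Wdr83os and Cebpzos without dox ended with columns centred on their median. All of these also ended under quantile normalization, as did those of Mocos and Vax2os with dox. Without variance moderation those of Abhd11os, Map2k3os, Zbtb8os and Cebpzos ended. Without the filter on low values those of Abhd11os, Map2k3os and Zbtb8os ended. Removal of the length trend ended those of Map2k3os, Zbtb8os, Wdr83os and Cebpzos.

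Below the mark of 1 RPKM the dox-labelled columns held fewer members. Of the 142 members 43 were listed at 0 in nuclear RNA with dox and 25 without, and 54 and 18 in total RNA. Over the 19716 genes 17.1% and 11.1% were listed at 0 in nuclear and 17.1% and 6.27% in total RNA, against 30.3%, 17.6%, 38.0% and 12.7% of the members. Of 1146 other long noncoding genes 40.1%, 18.6%, 38.9% and 13.0% were listed at 0 in the same columns, so the members did not stand out from these. The dox libraries were the shallower ones by the estimated depths, and the part of depth in these counts was not tested. Acss2os, Gad1os, Nkx2-2os, Peg3os and Tmem150cos were listed at 0 in all 4 columns, as were 287 of all 19716 genes. A listed 0 can be a lack of reads at this depth. A further 24 members were above 0 in 1 column alone: 14 in total RNA without dox, 8 in nuclear RNA without dox and 2, Gata5os and Pax6os1, in nuclear RNA with dox. Over all genes 969, 403 and 149 were above 0 in these columns alone, and 143 in total RNA with dox. The lean to the no-dox columns was thus also present over all genes. In 19 of these 24 the deposited p-value is the one that reads in a single library give, so that their level rests on 1 library. Another 10 members were at 0 in both dox-labelled columns and above 0 in both no-dox columns, and 0 showed the reverse; over all genes these patterns held for 694 and 38.

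Of the 113 members under the mark, Uros, Uckl1os, Nrros, Arhgap20os and Frs3os had the highest mean over the 4 columns, 0.591 to 0.745 RPKM. Uckl1os averaged 0.485 and 0.822 RPKM with and without dox in nuclear RNA and 0.674 and 0.903 RPKM in total RNA. Arhgap20os averaged 0.776 and 0.453 RPKM with and without dox in nuclear RNA and 0.875 and 0.481 RPKM in total RNA. When all 137 members with a residual SD were tested without the filter, 5 were higher and 26 lower in nuclear RNA (all genes: 22.0% higher, 18.6% lower), and 2 higher and 23 lower in total RNA (20.8% and 15.3%). Taken over the 137, the share of lower members was thus close to that of all genes in both fractions. The share of higher members was below that of all genes. Symbols that end in as or ot after a gene symbol numbered 2 and 3, of which 1 and 2 were tested; Hras and Leprot among them match by spelling, so no comparison with these lists was made.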

How the data were processed

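The members and gene lists were chosen with earlier results of these data known. Per the submitters' processing notes, reads were converted with bcl2fastq 2.17.1 and mapped with TopHat to mm10; Partek 6.6 gave RPKM values and the ANOVA, per the file headers. Counting, its use of strand and its annotation are not given in the sources used here. The deposited table holds group means of log2(RPKM + 0.001), by the authors. It also holds the authors' ANOVA p-values and q-values, their ratio of dox over no dox and their signed fold change, a score; of these only the p-values were used. The labels do not tell whether cultures were separate, so p-values measure the spread between libraries, which may be technical. The symbols, and the positions in mm10, were matched to GENCODE M21 and RefSeq.

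The residual SD of each gene was recovered from its 2 p-values: with 6 residual degrees of freedom both gave the same SD within 0.001 for 100% of 16338 genes, against 10.7% with 5 and 12.8% with 7. The deposited means thus rest on 10 of 12 listed libraries, and which 2 are missing is unknown. Depths were read from the steps of low values. Group means and SDs were passed to limma 3.58.1 (R 4.3.3; variance trend, median prior degrees of freedom 6.97) for the 10197 genes with at least 1 RPKM in at least 1 group mean, and genes were called at a Benjamini-Hochberg adjusted p below 0.05 within a comparison. RPKM levels are geometric means: a library with no read enters as 0.001, which lowers the mean strongly, and folds are those of RPKM + 0.001 on the log2 scale. Expected reads per library are the mean RPKM times exon length and depth. The procedure was tested on simulated data.

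Full statistics are given for up to 6 called members in each direction and comparison and for pairs called in opposite directions; Brip1, the promoter windows and the list of other long noncoding genes were chosen after values were seen. Alternatives were no filter, a filter of 5 RPKM, centring on the median, quantile normalization, no variance moderation, removal of the trend on exon length, and a pseudocount of 0.1.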

Additional observations from a re-analysis of the deposited data

How the results depend on the processing

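The table holds no single libraries, so leaving out each replicate was not run. No paired analysis was possible because the columns are group means and carry no replicate numbers. Counts of called members are given as higher and lower. Without the filter on low values (137 members) they were 5 and 26 in nuclear RNA and 2 and 23 in total RNA for dox, and 4 and 5 with dox and 2 and 9 without dox for nuclear over total RNA. With a filter of 5 RPKM 5 members were left: 1 and 0, 1 and 1, 2 and 0, and 2 and 2. Centred on the median the counts were 3 and 12, 2 and 12, 6 and 2, and 4 and 3. Under quantile normalization they were 5 and 8, 3 and 10, 4 and 0, and 5 and 3. Without variance moderation they were 4 and 10, 2 and 10, 2 and 3, and 2 and 4. With the trend on exon length removed (28 members) they were 1 and 19, 0 and 17, 3 and 3, and 4 and 3. The difference of the dox effects gave 0 calls under each of these. Shares over all genes were counted only in the main setting and, for dox, without the filter. The other counts therefore have no background beside them. Centring moved the median of all genes by -0.145 and -0.189 for dox in nuclear and total RNA and by 0.367 and 0.323 for nuclear over total RNA with and without dox, so the split of nuclear over total calls moves with the scaling. Of the 47 calls of single members 21 stood under every alternative that tested them, and 2 turned sign with the length trend removed: Cebpzos in nuclear RNA (-0.551) and Dgkeos in total RNA (-0.008). A pseudocount of 0.1 turned no sign but moved 7 of the 47 values by more than their SE, all toward 0 and most for Zfhx2os in total RNA (-3.632 against -8.962). The causes were not tested. Depth limits the low members: 8 of 28 tested members had under 10 expected reads per library in nuclear and 9 in total RNA with dox, and 1 and 0 without dox.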
